A study of Mus musculus with 15 samples.

Results

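The circadian clock genes Per1, Per2, Per3, Cry1, Cry2, Clock, Nr1d1, Nr1d2, Dbp and Tef, 10 in all, were followed by their symbols through a count table of 40402 genes from 4T1 cells, a mouse mammary carcinoma line. All 10 had a row, and all 10 were among the 17647 genes with at least 1 CPM (count per 1000000 counts of a library) in at least 1 library. The study compared untreated cells with cells given a blackberry extract (BLA), a blueberry extract (BLU), or gold nanoparticles made with the blackberry (BLA-A) or the blueberry extract (BLU-A). The cells were wild type and grew in the same serum-containing medium, and treatment began 24 hours after seeding. The time of harvest was not given in the sources used here, and nothing there describes a step to synchronize the clock of the cultures. The clock genes were read as a check of whether the 5 cultures stood at a common clock phase.

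The mammalian clock is a loop of transcription and repression that runs in single cells with a period of about a day. CLOCK and BMAL1 bind E-box sequences and switch on the Per, Cry and Nr1d genes and Dbp. PER and CRY proteins then repress CLOCK and BMAL1, while the receptors NR1D1 and NR1D2 repress Bmal1. DBP and TEF act at D-box sequences of further clock genes. In cultured cells each cell keeps its own time, so that the levels in a dish average over cells unless a stimulus such as fresh serum or a glucocorticoid sets them to 1 phase. In cells that share a phase, the Dbp, Nr1d1 and Per genes peak at other hours than Bmal1.

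The table holds 3 columns per condition, and the 3 columns were closer to each other than separately drawn libraries would be by sampling noise, with a chi-square per degree of freedom between 0.0951 and 0.475. They were counted as 1 library per condition, so that no treatment had a replicate check and no test was made of a single treatment. The mean total was between 25613778 and 26956442 counts per library. Intervals below are 95% intervals from the counts alone and cover counting error only. The labels give the columns dates of their own, so that date and treatment cannot be told apart. The epithelial markers Epcam, Krt8, Krt18 and Cdh1 had at least 920 counts in every library, whereas Krt14 had at most 20. The 6 markers of other cells summed to between 10.7 and 12.9 CPM, most of it from Cd68, and Adipoq had no count in the untreated, BLA and BLA-A libraries. The BLA-A library stood apart from the others, with a normalization factor of 0.905 against 1.01 to 1.03.

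The promoters shown first are those of the 3 members whose level varied most over the 5 libraries. Each is the 250 bases before a transcription start in RefSeq, which matched the GRCm39 genome exactly once, and is written 5′ to 3′ on the strand of the gene. Per1 had 2 promoter entries, of which 1 held the E-box, and that entry was chosen for display. It lies inside the gene as annotated in GENCODE M39, where Per1 begins at position 68986035. Capitals mark an E-box (CACGTG) in Per1, an E-box variant (CACGTT, here as its reverse complement) in Nr1d1 and a pair of D-boxes (TTATGTAA) in Per3.
Per1, chr11:68989525-68989774, plus strand: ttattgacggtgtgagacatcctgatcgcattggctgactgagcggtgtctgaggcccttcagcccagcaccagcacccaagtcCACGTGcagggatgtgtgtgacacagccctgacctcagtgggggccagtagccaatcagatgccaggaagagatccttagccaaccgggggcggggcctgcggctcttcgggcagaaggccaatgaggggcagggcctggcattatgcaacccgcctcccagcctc
Nr1d1, chr11:98666204-98666453, minus strand: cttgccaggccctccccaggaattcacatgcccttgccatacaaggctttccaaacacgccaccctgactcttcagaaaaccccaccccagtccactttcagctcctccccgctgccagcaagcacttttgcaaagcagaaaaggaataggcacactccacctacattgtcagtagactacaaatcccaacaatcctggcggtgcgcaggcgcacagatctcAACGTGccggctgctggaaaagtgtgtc
Per3, chr4:151129123-151129372, minus strand: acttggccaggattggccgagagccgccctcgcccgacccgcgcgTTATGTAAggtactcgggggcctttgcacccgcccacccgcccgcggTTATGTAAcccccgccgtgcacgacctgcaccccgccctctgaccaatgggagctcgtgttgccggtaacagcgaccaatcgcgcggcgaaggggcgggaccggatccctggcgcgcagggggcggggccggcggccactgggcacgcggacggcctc
The E-box of Per1 begins 166 bases before the start, the variant of Nr1d1 28 bases before it, and the D-boxes of Per3 205 and 158 bases before it. Of the 10 members, 9 had promoters in the RefSeq table and Per2 had no entry. The E-box was found on either strand in 3 of the 9 (Per1, Cry1 and Tef) and in 6.02% of 32851 promoters of the same length. The variant CACGTT was found in 3 members (Nr1d1, Cry1 and Cry2) and in 3.85% of promoters. TTATGTAA was found in Per3 alone among the members and in 0.819% of promoters. The motif AGGTCA, the core bound by the ROR and NR1D receptors, was found in Per1, Clock and Nr1d2 and in 14% of promoters. A member was counted if any of its promoter entries held the motif, and the 9 members had 13 entries. The percentages count single entries, so the member counts and the percentages are not directly comparable. These are matches of letters and were not tested as binding sites.

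Per1, which encodes a repressor that is also an early response gene to serum and stress, varied most. Its level was 11.7 CPM in untreated cells, 22 with BLA, 14.7 with BLU, 46.5 with BLA-A and 15 with BLU-A. The BLA-A library was highest and its counting interval, 43.8 to 49.4 CPM, lay above those of the other 4 libraries. In bulk RNA, more cells with the transcript and more transcript per cell cannot be told apart. On the scale of log2(CPM + 0.5), the difference from untreated cells was 1.95 with BLA-A, 0.88 with BLA, 0.35 with BLU-A and 0.32 with BLU. Per1 was thus higher in each of the 4 treated libraries, and BLU-A and BLU did not differ beyond counting error (log2 difference 0.03, interval -0.17 to 0.23).

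Per2, a partner of PER1 in repression, did not follow it. Its level was 9.98 CPM in untreated cells, 16.6 with BLA, 14.9 with BLU, 16.8 with BLA-A and 11.6 with BLU-A. The BLA-A and BLA libraries, which differed more than any other neighbours for Per1, were level for Per2 (log2 difference 0.02, interval -0.18 to 0.21). Against untreated cells the log2 fold change was 0.72 with BLA-A, 0.71 with BLA, 0.55 with BLU and 0.21 with BLU-A, where the interval of the ratio included no difference (-0.03 to 0.46).

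Per3, the third PER protein, was lowest where Per1 was highest. Its level was 46.9 CPM in untreated cells, 71.6 with BLA, 57.1 with BLU, 32.4 with BLA-A and 54.3 with BLU-A. The 3 other treated libraries were above the untreated library and BLA-A was below it, with log2 fold changes of 0.60 with BLA, 0.28 with BLU, 0.21 with BLU-A and -0.53 with BLA-A. The Per genes therefore did not move together in the BLA-A library, where the log2 fold changes of Per1, Per2 and Per3 were 1.95, 0.72 and -0.53.

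**Figure D1:**
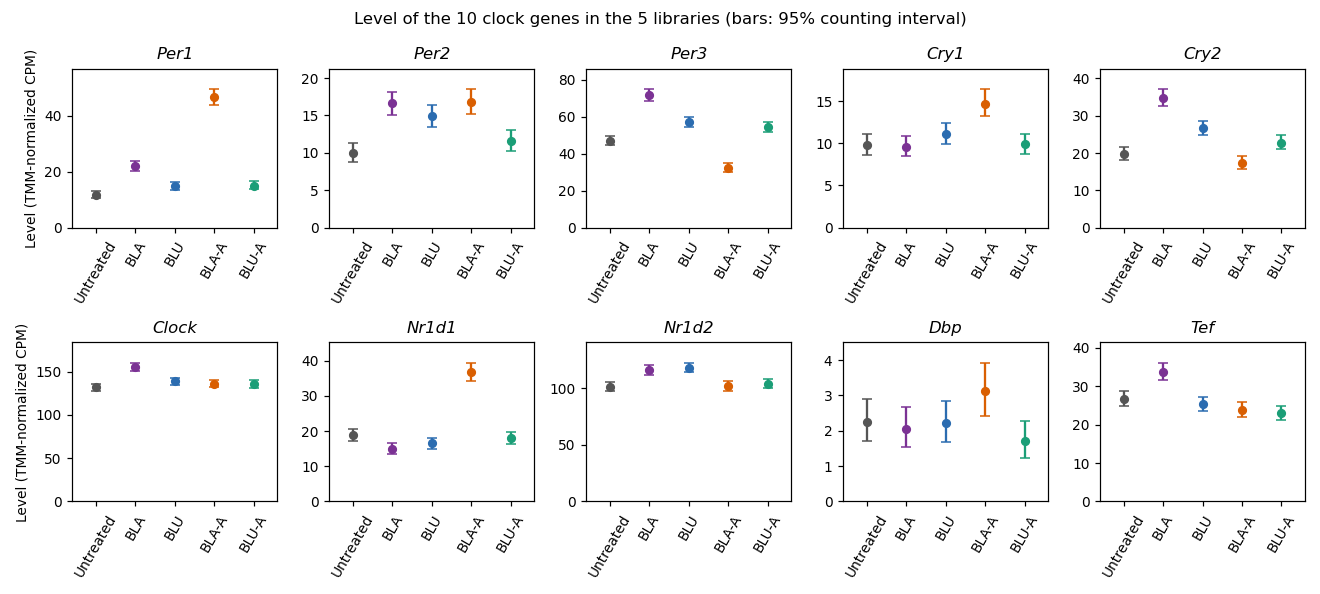
Level of each clock gene (y axis, TMM-normalized CPM, from 0) in the 5 libraries (x axis), as points with 95% counting intervals. Per1 and Nr1d1 were highest in BLA-A, at 46.5 and 36.7 CPM, where Per3 was lowest at 32.4 CPM, while Clock stayed between 132 and 155 CPM.

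The cryptochromes, which bind PER proteins and carry most of the repression, differed from each other. Cry1 was at 9.79 CPM in untreated cells, 9.58 with BLA, 11.1 with BLU, 14.7 with BLA-A and 9.85 with BLU-A. Only the BLA-A library stood apart, at a log2 fold change of 0.56, and the counting intervals of the 4 other libraries overlapped. Cry2 was at 19.8 CPM in untreated cells, 34.8 with BLA, 26.7 with BLU, 17.3 with BLA-A and 22.8 with BLU-A. This is the order seen for Per3, from BLA through BLU, BLU-A and untreated cells to BLA-A, and the log2 fold change was 0.80 with BLA, 0.42 with BLU, 0.20 with BLU-A and -0.19 with BLA-A. Per3 and Cry2 were among the closest pairs of members, with a root-mean-square difference of 0.13 between their centred log2 levels over the 5 libraries.

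Clock, the activator that pairs with BMAL1, was nearly level. It was at 132 CPM in untreated cells, 155 with BLA, 139 with BLU, 136 with BLA-A and 136 with BLU-A. BLA was above the rest by more than counting error. From BLU through BLA-A and BLU-A to untreated cells, each step between neighbours had an interval that included no difference. Compared directly, BLU was above untreated cells by 0.07 (interval of the ratio 0.01 to 0.14). The range from the lowest to the highest library was 0.23 on the log2 scale.

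The nuclear receptor genes Nr1d1 and Nr1d2, which encode the repressors of Bmal1 also called REV-ERB alpha and beta, diverged. Nr1d1 was at 18.8 CPM in untreated cells, 15 with BLA, 16.5 with BLU, 36.7 with BLA-A and 18 with BLU-A. BLA-A was highest by a log2 difference of 0.95 from untreated cells (interval of the ratio 0.80 to 1.13), and the 3 other treated libraries were below untreated cells, at -0.31 with BLA, -0.19 with BLU and -0.06 with BLU-A. Nr1d2 was at 101 CPM in untreated cells, 116 with BLA, 118 with BLU, 102 with BLA-A and 104 with BLU-A. It had the smallest range of the 10 members, 0.22, and BLA-A differed from untreated cells by 0.01. Under scaling by total counts the BLA-A differences of Nr1d2 and Clock turned to -0.18 and -0.15.

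Dbp and Tef encode PAR-domain factors that carry the rhythm to output genes. Dbp was scarce, with 60 counts in untreated cells, 56 with BLA, 61 with BLU, 72 with BLA-A and 45 with BLU-A. No neighbours in its order differed beyond counting error, and no treated library differed from untreated cells detectably at this depth. BLA-A, at 3.11 CPM, was above BLA (interval of the log2 ratio 0.07 to 1.13) and above BLU-A, at 1.7 CPM, whose counting interval did not overlap its own. Tef was at 26.8 CPM in untreated cells, 33.7 with BLA, 25.4 with BLU, 23.8 with BLA-A and 22.9 with BLU-A. BLA stood above the others beyond counting error, at a log2 fold change of 0.33, and BLU-A was below untreated cells at -0.22 (interval of the ratio -0.39 to -0.07).

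Levels per length placed Nr1d2 and Clock at the top of the 10 members and Dbp at the bottom. In untreated cells Nr1d2 had 11.2 CPM per kilobase of exon in GENCODE M39, Clock 7.65, Nr1d1 5.8, Per3 4.47, Tef 3.24, Cry2 2.3 and Cry1 1.97. Per1 and Per2 were equal at 1.52, and Dbp was at 0.649. Reads in introns were counted too, so that the order depends on which length is used. Per kilobase of the whole gene Nr1d2 remained highest at 2.81 and Nr1d1 followed at 2.53, while Cry1, a gene of 53.7 kilobases, was lowest at 0.182.

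Set against the whole table, the clock genes varied about as much as other genes of like level. The range from the lowest to the highest library had a median of 0.72 over the 10 members and of 0.71 over the 9765 genes with a mean of at least 10 CPM. Of the members, 3 had a range over 1, Per1 at 1.95, Nr1d1 at 1.26 and Per3 at 1.13, and Cry2 was just under it at 0.99. Among all genes tested the share with a range over 1 was 48.3%, and among genes with a mean of at least 10 CPM, a set that leaves out Dbp, it was 27.3%. The range of Per1 exceeded that of 96.8% of the latter genes, and those of Clock and Nr1d2 that of 3.9% and 3.6%. Without the BLA-A library 0 of the 10 members had a range over 1, and the median was 0.44, beside 0.43 for genes with a mean of at least 10 CPM. The share over 1 was then 28.2% of all genes tested and 6.26% of those with a mean of at least 10 CPM. Of the 40 pairs of neighbouring libraries in the members' orders, 24 did not differ beyond counting error. Neighbours in an order are the closest libraries, and the count depends on depth, with all 4 pairs of the scarce Dbp among the 24. It was not made for the whole table, so it does not show whether the clock genes were steadier than others.

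**Figure D2:**
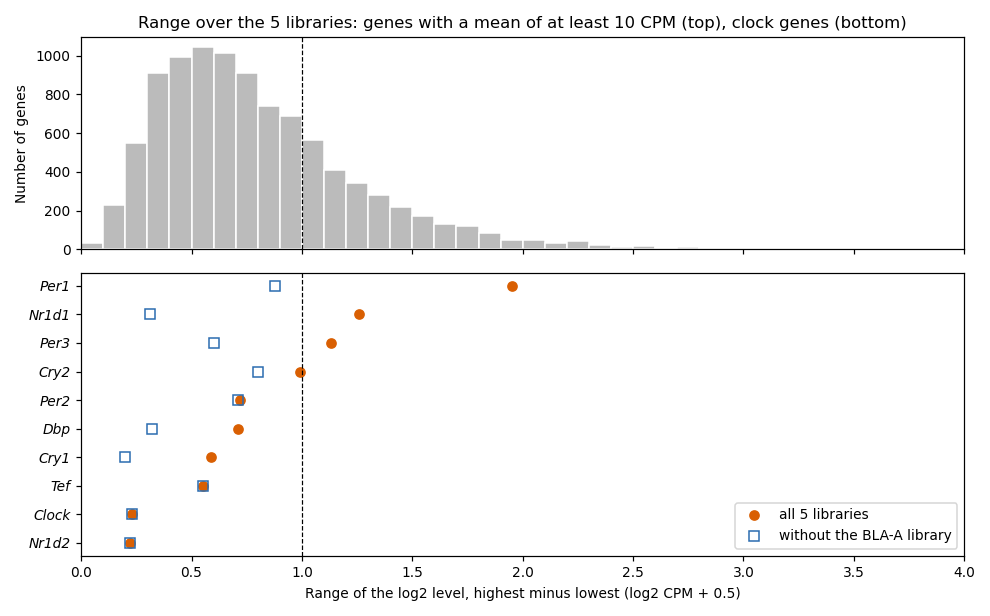
Range of the log2 level over the 5 libraries (x axis) for 9765 genes with a mean of at least 10 CPM (top, number of genes in bins, with 37 genes beyond the axis) and for each clock gene (bottom, filled circles for all 5 libraries, open squares without BLA-A). Per1, Nr1d1 and Per3 lie beyond 1 (dashed line), and no clock gene does without the BLA-A library.

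Taking each treatment against untreated cells, a log2 fold change over 1 in size was reached by 0 of 10 clock genes in BLA, where it was reached by 16.5% of all genes tested and 5.22% of those with a mean of at least 10 CPM. In BLU it was 0 of 10, beside 10.3% and 2.4%. For BLA-A the count was 1 of 10, Per1, beside 20.9% and 12.6%. BLU-A had 0 of 10, beside 7.85% and 0.86%. The median log2 fold change of the members was 0.28 with BLA, 0.20 with BLU, 0.22 with BLA-A and 0.04 with BLU-A, and that of all genes tested was between -0.01 and 0.00. In each treatment 7 of the 10 were above untreated cells. Depending on the treatment, 8635 to 8858 of the 17647 genes tested were above untreated cells too. Among the 9765 genes with a mean of at least 10 CPM, 4722 to 5516 were, with the most in BLA-A. Whether 7 of 10 exceeds these shares was not tested. The 7 members were not the same each time, since Per3 and Cry2 were lower in BLA-A and Nr1d1 and Dbp were higher there alone. Some of these signs depended on the scaling, with Clock and Nr1d2 below untreated cells in BLA-A under total counts and Cry1 at -0.02 in BLU-A with DESeq2 size factors. These comparisons share the untreated library.

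The median size of a member's change was close to that of genes with a mean of at least 10 CPM in each treatment. It was 0.32 in BLA beside 0.32, 0.20 in BLU beside 0.24, 0.46 in BLA-A beside 0.41 and 0.20 in BLU-A beside 0.16. The largest differences between a pair of treated libraries were those that held BLA-A, with a median over the members of 0.54 from BLA, 0.54 from BLU-A and 0.40 from BLU. For genes with a mean of at least 10 CPM these medians were 0.48, 0.41 and 0.46. Between BLU and BLU-A the median over the members was 0.16, beside 0.17.

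The nanoparticles were also set against the extract of the same berry, a comparison chosen after the values were seen. From BLA to BLA-A, 3 of 10 members passed 1 in size, Per1 at 1.07, Nr1d1 at 1.26 and Per3 at -1.13, beside 24.5% of all genes tested. Cry2 was at -0.99 there. From BLU to BLU-A the count was 0 of 10, beside 6.76%, and Per2 had the largest difference, -0.35. The 2 nanoparticle libraries thus differed in how far they stood from their extracts, and the difference was not tested, for want of replicates.

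With the 4 treated libraries set together against the untreated one, edgeR's quasi-likelihood test called 4 genes over the whole table (0.0227% of 17647, 0 higher and 4 lower; 34 higher and 11 lower without the BLA-A library) and none of the 10 clock genes. This fit draws its spread from the differences between treatments and left 3 residual degrees of freedom. Among all genes tested, 481 had an unadjusted p under 0.05, none of them a member, and DESeq2 called 17 genes, 9 higher and 8 lower, and none of the members. Per1 and Per2 had the largest log2 fold changes, 1.07 (standard error 0.70, adjusted p = 0.999) and 0.58 (standard error 0.38, adjusted p = 0.999), and both were higher in 4 of 4 treated libraries. The others lay between -0.02 and 0.36.

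A ratio taken within a library does not depend on how libraries are scaled to each other. It can still depend on gene length, and Bmal1 spans 109 kilobases beside 43.4 for Per2, 16.3 for Per1, 7.44 for Nr1d1 and 5.12 for Dbp. Median log2 fold changes of the shortest and longest genes were -0.28 and 0.27 in BLA and -0.22 and 0.24 in BLU. The ratios were not adjusted for length, and its part in them was not tested. Nr1d1, Dbp and Per2, which in cycling cells peak at other hours than Bmal1, were therefore set against Bmal1, the partner of Clock. Bmal1 itself was at 37.5 CPM in untreated cells, 69.8 with BLA, 58.2 with BLU, 45.2 with BLA-A and 42.5 with BLU-A, so that it was higher in each treated library. Untreated cells had 501 counts of Nr1d1 for 999 of Bmal1, and the log2 ratio of the pair was -2.22 with BLA, -1.82 with BLU, -0.30 with BLA-A and -1.24 with BLU-A. Against untreated cells the log2 ratio differed by -1.22 with BLA and -0.83 with BLU (counting standard error 0.11 for each) and by 0.70 in BLA-A (standard error 0.10).

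The ratio of Dbp to Bmal1 had the same order at its extremes. It was -4.06 in untreated cells, -5.09 with BLA, -4.72 with BLU, -3.86 with BLA-A and -4.65 with BLU-A, with counting standard errors of 0.18 to 0.22. The difference of BLA-A from untreated cells, 0.19, was within its standard error of 0.26. Per2 to Bmal1 was -1.91 in untreated cells, -2.07 with BLA, -1.97 with BLU, -1.43 with BLA-A and -1.88 with BLU-A. Only BLA-A stood apart from untreated cells, by 0.48 (standard error 0.13). Per1, added after its values were seen, had as many reads as Bmal1 in BLA-A (log2 ratio 0.04, standard error 0.06) and fewer elsewhere, with ratios from -1.99 in BLU to -1.50 in BLU-A.

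**Figure D3:**
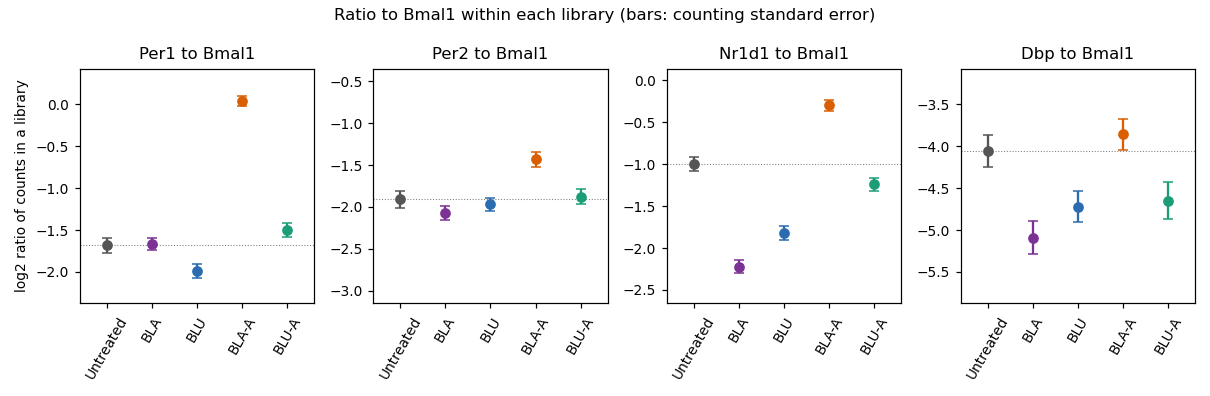
Log2 ratio of the counts of Per1, Per2, Nr1d1 and Dbp to those of Bmal1 (y axis) within each of the 5 libraries (x axis), with counting standard errors and a dotted line at untreated cells. All 4 ratios were highest in BLA-A, and those of Nr1d1 and Dbp were lowest in BLA. For Dbp, BLA-A was within counting error of untreated cells. The ratios were not adjusted for gene length.

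A further 10 clock genes, chosen for their role, held the largest differences of the pathway. Those that passed the threshold of 1 on the log2 scale numbered 3 of 10 in BLA (0 higher, 3 lower), 1 in BLU (lower), 4 in BLA-A (1 higher, 3 lower) and 2 in BLU-A (both lower). The shares of all genes tested were 16.5%, 10.3%, 20.9% and 7.85%. Of the genes counted, Npas2 was in the tested set only through its level in untreated cells and Hlf only through its level in BLA-A, so that a difference from those libraries was built into their selection. Npas2, which can stand in for CLOCK, had 70 counts in untreated cells, 4 with BLA, 19 with BLU, 8 with BLA-A and 21 with BLU-A. Rora, which encodes an activator of Bmal1, had 200 counts in untreated cells, 5 with BLA, 130 with BLU, 9 with BLA-A and 88 with BLU-A. Both were lower in each treated library, and lowest in the BLA and BLA-A libraries. With the treated libraries pooled against the untreated one, edgeR's quasi-likelihood test called none of these 10.

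Rorb, of the same receptor family, had 43, 0, 33, 1 and 22 counts in untreated, BLA, BLU, BLA-A and BLU-A libraries, which makes it at least 14.7-fold lower in BLA against the floor of 3 counts. In BLA-A the log2 ratio from 1 count was -5.23, with a counting interval of -10.56 to -2.67. Ptprc and Pdgfrb, markers of leukocytes and of fibroblasts, followed a like course at low counts. In the same order of libraries they had 40, 5, 31, 7 and 10 counts for Ptprc and 38, 0, 28, 8 and 10 for Pdgfrb. Other markers of the same list did not follow it. In BLA, Acta2 had 47 counts beside 13 in untreated cells, Pecam1 60 beside 39 and Cd68 240 beside 196. The part of other cells in the result was not tested.

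Of the other genes in the loop, Bmal2 was at 22.8 CPM in untreated cells, between 29.1 and 31.2 in BLA, BLU and BLU-A, and at 11.9 in BLA-A. Bhlhe41, a repressor at E-boxes, was highest in BLA-A at 36.8 CPM, beside 18.5 in untreated cells, whereas its paralog Bhlhe40 was between 107 and 126 CPM. Ciart, an inhibitor of CLOCK and BMAL1, was at 16.9 CPM in BLA beside 8.22 in untreated cells, a log2 fold change of 0.99. Nfil3, which opposes DBP and TEF at the D-box, had log2 fold changes between -0.34 and 0.31. Hlf, the third PAR-domain gene, had 12 counts in untreated cells and 35 in BLA-A, its highest library.

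**Figure D4:**
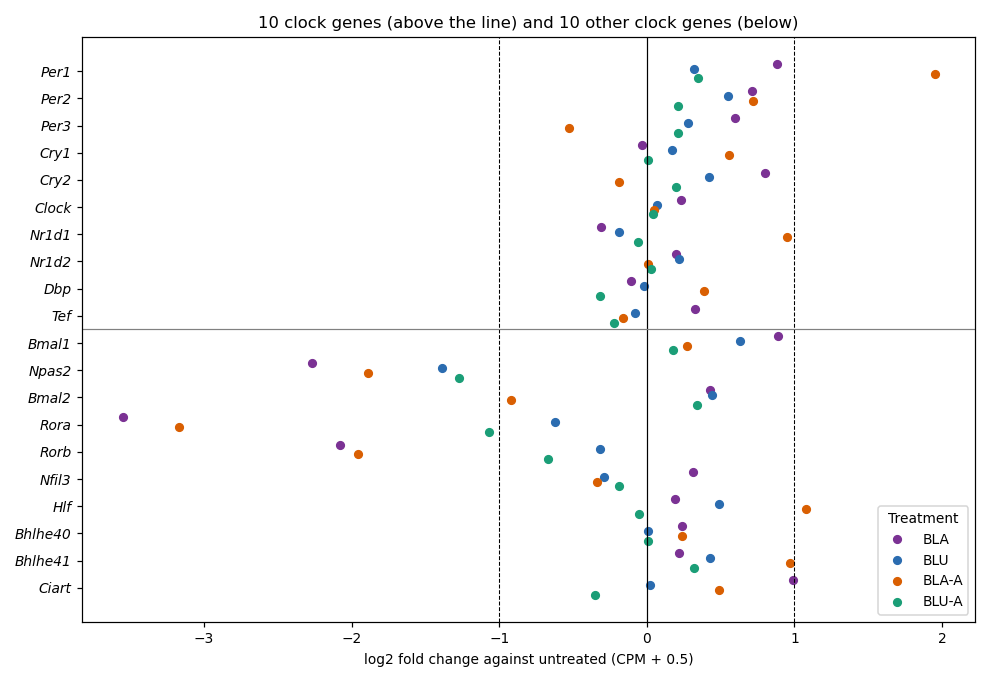
Log2 fold change against untreated cells (x axis, on CPM + 0.5) of the 10 clock genes and of 10 other clock genes (y axis) in the 4 treatments, with dashed lines at 1 in either direction. Per1 in BLA-A, at 1.95, is the only point of the 10 members past a dashed line. Npas2 is below the lower line in each treatment, but it was tested only through its level in untreated cells, which built in that direction.

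Genes that act on PER and CRY proteins were all within 1 in BLA, BLU and BLU-A. Of all genes tested, 16.5%, 10.3% and 7.85% passed 1 in size there. In BLA-A, 1 of 5 passed 1, beside 20.9% of all genes tested and 12.6% of those with a mean of at least 10 CPM. This was Btrc, an F-box protein that marks PER for degradation, at 141 CPM beside 62.4 in untreated cells (log2 fold change 1.17). Csnk1d and Csnk1e, the kinases that phosphorylate PER, were at 0.69 and 0.84 in BLA-A. The median of the 5 was 0.69 in BLA-A and between 0.06 and 0.24 in the other treatments.

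Output genes of the clock showed no member past 1 in any treatment, beside 7.85% to 20.9% of all genes tested. Wee1, Nampt, Usp2 and Noct had a median log2 fold change of 0.29 with BLA, 0.26 with BLU, 0.60 with BLA-A and 0.07 with BLU-A. Noct, which encodes a rhythmic phosphatase of NADPH, was at 99 CPM with BLA-A and 84.4 with BLU, beside 54 in untreated cells. Wee1, a kinase that holds back entry into mitosis, was at 81.6 CPM in BLA-A beside 50.7.

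Immediate early genes carry many of the signals that reset the clock and act on Per1. In BLA-A 4 of 5 passed 1, Fos at 2.20, Nr4a1 at 1.49, Egr1 at 1.13 and Sik1 at 1.02, while Crem was at -0.03. Fos was at 13.2 CPM in untreated cells, 23.6 with BLA, 12.6 with BLU, 62.4 with BLA-A and 21.9 with BLU-A, and none of the 5 passed 1 in the other treatments. Among all genes tested the share past 1 in BLA-A was 20.9%, and among those with a mean of at least 10 CPM it was 12.6%.

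Glucocorticoids are the other common signal to Per1. Of 5 responsive genes, Sgk1 passed 1 upward in BLA-A, at 121 CPM beside 53.3, where 20.9% of all genes tested passed 1 in size. Tsc22d3 and Klf9 were at 0.58 and 0.79 there, and Fkbp5 was at -0.59. Zbtb16 passed 1 downward in each treatment, with 76 counts in untreated cells, 5 with BLA, 6 with BLU, 2 with BLA-A and 24 with BLU-A. It reached 1 CPM in untreated cells alone and was tested only through that library, so that its direction was set by its selection. With the treated libraries pooled, edgeR's quasi-likelihood test called none of the turnover, output and input genes, of which 1, Zbtb16, had an unadjusted p under 0.05 (adjusted p = 0.999).

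By a fixed measure of likeness, the smallest root-mean-square difference between centred log2 levels over the 5 libraries, the genes nearest to Per1 were Tsku (0.030), Smpd1 (0.104) and Tmbim4 (0.113). Tsku was at 7.84 CPM in untreated cells and 31.5 in BLA-A. Nearest to Nr1d1 were Uqcrc1 (0.016), Rcc2 (0.031) and Dad1 (0.033), and to Per3 Ift172 (0.016), Mfsd8 (0.036) and Garnl3 (0.047). A difference under 0.2 was reached by 951 genes for Nr1d1 and 698 for Per3, and by 16 for Per1, of 9756 compared. The patterns of Nr1d1 and Per3 were thus shared with many genes. The measure depends on the size of the range, and that of Per1 exceeded the range of 96.8% of genes with a mean of at least 10 CPM. The count of 16 therefore cannot show whether the order of libraries seen for Per1 was rare.

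Several members lie across another gene on the opposite strand. The authors' counting was strand-specific, which assigns reads by strand, but how fully it parted such a pair cannot be told from the counts alone. Cry2 (GRCm39 chr2:92233894-92264474, minus strand) overlaps the noncoding D930015M05Rik over 76.6% of its length. That gene had 325, 717, 539, 286 and 391 counts in untreated, BLA, BLU, BLA-A and BLU-A libraries, where Cry2 had 527, 948, 736, 401 and 604. For every 100 reads of Cry2 the partner had between 61.7 and 75.6. Its log2 fold change was 1.08 with BLA and 0.66 with BLU, beside 0.80 and 0.42 for Cry2.

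Nr1d1 (chr11:98658752-98666188, minus strand) shares 42.7% of its length with Thra, a thyroid hormone receptor gene. Thra was nearly level, at 1249 counts in untreated cells, 1093 with BLA, 1221 with BLU, 1271 with BLA-A and 1256 with BLU-A, so that its log2 fold change in BLA-A was 0.22 beside 0.95 for Nr1d1. Bmal1 holds Gm33721, which had log2 fold changes of 1.30 with BLA and 0.97 with BLU beside 0.89 and 0.63 for Bmal1. Clock shares its end with Tmem165, at -0.33 in BLA beside 0.23 for Clock. Dbp, with 60 counts in untreated cells, lies against Sphk2, with 459. Per3 holds Uts2, which had at most 37 counts in any library, and Per1, Per2, Cry1 and Nr1d2 overlapped no gene with a row in the table.

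**Figure D5:**
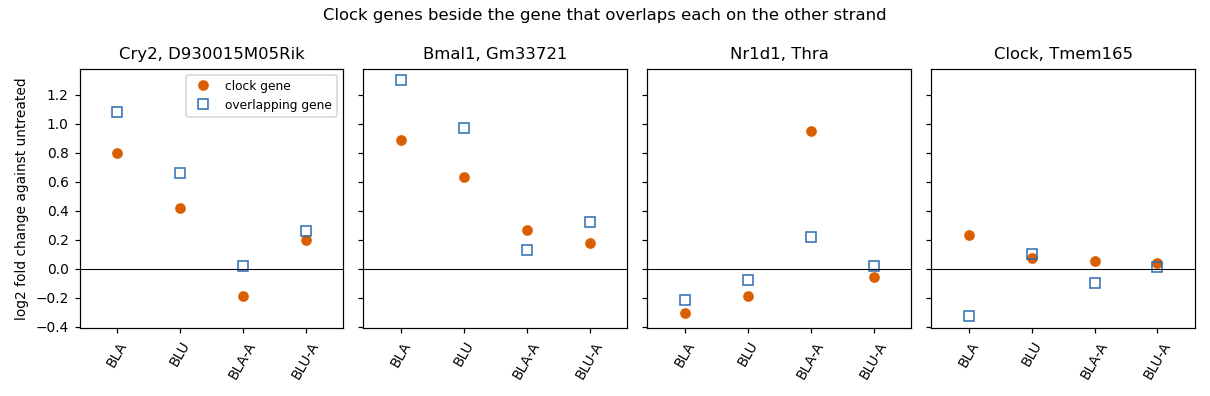
Log2 fold change against untreated cells (y axis) in the 4 treatments (x axis) for Cry2, Bmal1, Nr1d1 and Clock (filled circles) and for the gene on the opposite strand of each (open squares). The partners of Cry2 and Bmal1 kept near them in each treatment, whereas Thra stayed at 0.22 in BLA-A beside 0.95 for Nr1d1.

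Gene length moved with the fold changes in BLA and BLU, a comparison added after the values were seen. Among genes with a mean of at least 10 CPM, the median log2 fold change was -0.28 with BLA and -0.22 with BLU for the shortest class (up to 18.9 kilobases) and 0.27 and 0.24 for the longest. Per1 and Nr1d1, of 16.3 and 7.44 kilobases, are in the shortest class. Centred on their class, Per1 was at 1.16 in BLA in place of 0.88, which is past 1, and at 1.80 in BLA-A, and Nr1d1 was at -0.03 with BLA and 0.80 with BLA-A. Cry1 and Clock, in the longest class, were at -0.30 and -0.04 in BLA after centring.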

How the data were processed

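Bulk RNA-seq of 4T1 cells was analysed in 5 conditions. The authors removed ribosomal RNA, aligned reads to GRCm39 with STAR and counted them on whole genes, introns included, in a strand-specific setting. The deposited table gives raw counts for 40402 genes in 15 columns, and 2 further deposited tables, of the authors' fold changes with p-values and of their gene set results, were not used. The study's supplement describes 1 library per condition with 3 subsets of its reads, so the 3 columns were averaged and rounded. Per the labels, DESeq2 1.36.0 was among the authors' tools.

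Levels are CPM after edgeR (4.0.16) TMM normalization, in R 4.3.3. The tested set was every gene that reached 1 CPM in any library, and fold changes are differences of log2(CPM + 0.5), with 1 as the threshold. Counting intervals were exact Poisson for levels and exact binomial for ratios. The 4 treated libraries were set against the untreated one with edgeR's quasi-likelihood test and Benjamini-Hochberg adjustment, tested on simulated data. DESeq2 (1.42.0), other scalings, pseudocounts and filters were alternatives. A library's floor was 3 counts, 0.111 to 0.117 CPM of its total. Promoters came from the RefSeq table of GRCm38.p6, located in GRCm39 by exact match, and overlaps and lengths from GENCODE M39.

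The clock genes and the lists of other genes were chosen with earlier results of these data known. Named were the members, those lists, genes overlapping a member, and for the 3 members with the largest range the 3 nearest genes with a mean of at least 10 CPM. Some listed items are not reported here.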

Additional observations from a re-analysis of the deposited data

How the results depend on the processing

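Of 400 recomputed fold changes and ranges of single members, 380 moved by less than their counting error, 20 moved by more and none that had passed 1 changed sign. Scaling by total counts shifted the median of all genes in BLA-A from -0.01 to -0.18, which put Per1 at 1.76, Nr1d1 at 0.76 and Per3 at -0.72 there. With DESeq2 size factors Nr1d1 reached 1.01 in BLA-A, which made 2 members past 1 in place of 1. Centring on genes of like length made it 1 in BLA in place of 0. Leaving out 1 library or 1 of the 3 columns left between 0 and 4 members with a range over 1, with 0 when BLA-A was left out, and between 4982 and 8574 of all genes, the 4982 again without BLA-A. Over the whole table the count past 1 with a pseudocount of 2 CPM was 942 with BLA, 400 with BLU, 1859 with BLA-A and 208 with BLU-A, with a mean of at least 10 CPM it was 510, 234, 1229 and 84, and with a pseudocount of 0.1 CPM it was 2742 with BLU and 2366 with BLU-A. The count with a range over 1 was 4340 with the pseudocount of 2 CPM and 2665 with the mean of at least 10 CPM. In the test of the treated libraries against the untreated one, the count was 17 with DESeq2, and leaving out 1 treated library gave between 3 and 45 genes, the 45 without BLA-A, and no member. Treating the 15 columns as separate samples gave 3553 genes without a block and 2498 with the replicate block, with 1 member, Per2, in each (adjusted p = 0.00946 and 0.0242). The replicate numbers do not pair the columns, since the 30 pairs of columns with the same number had a mean correlation of -0.00111 and none over 0.1. The columns of a condition are subsets of 1 library, so these 2 fits enter each library 3 times. Their counts and adjusted p-values are therefore not those of separate samples. Depth limits Dbp most among the members, with 45 to 72 counts.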
